A study of Homo sapiens with 9 samples.

Results

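The transcriptomes of K562 cells carrying a guide RNA to the HBG1 promoter were compared with those of K562 cells carrying a non-targeting guide, all under rapamycin. The comparison used 5 of the 9 libraries of the study, chosen by the guide and treatment in their labels: 3 with the HBG1 promoter sgRNA and 2 with the non-targeting sgRNA. K562 is a human erythroleukaemia line. Every library came from K562-FIRE cells, which stably carry dCas9 (Lv EF1a dCas9 2A Blast), MS2-Fkbp(1x) (EF1a MS2-Fkbp(1x) 2A Hygro) and SS18-Frb (Lv EF1a SS18-Frb PGK Puro). Both rapamycin groups received 10 nM for 24 h. The other 4 libraries received DMSO for 24 h, 3 with the HBG1 promoter sgRNA and 1 with the non-targeting sgRNA. All 9 libraries entered the fit behind the tests of single genes, so the DMSO libraries shaped its filter, scaling and spread. Otherwise the DMSO values are set beside the rapamycin values. The study asked whether endogenous BAF can activate HBG1 in this system, and the comparison of guides shows which transcripts differed between cells with the 2 guides when both were exposed to rapamycin.

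dCas9 is a Cas9 that binds DNA at the site matched by its guide without cutting it. In such systems the guide carries RNA loops bound by MS2, and rapamycin bridges Fkbp and Frb, so that the SS18 fusion, a subunit of the BAF chromatin remodelling complex, is brought to the guide's site. Haemoglobin pairs alpha-like chains, encoded on chromosome 16, with beta-like chains, encoded on chromosome 11 in the order of their use in development: embryonic epsilon (HBE1), fetal gamma (HBG2 and HBG1), then adult delta (HBD) and beta (HBB). The genes share an upstream locus control region, an array of enhancers that contacts their promoters. K562 cells express embryonic and fetal globins and very little beta-globin. Rapamycin also inhibits mTORC1 in cells with either guide.

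Every gene that passed the threshold for a difference between the guides lay in the beta-globin locus. Of 23675 genes tested, 7 were called (0.0296%), and they were the 7 listed genes of that locus: 4 higher (0.0169%) and 3 lower (0.0127%) with the HBG1 guide. Called means an adjusted p below 0.05 from the quasi-likelihood test of edgeR, with the Benjamini-Hochberg procedure applied to all 23675 genes. HBG1, HBG2 and the neighbouring non-coding BGLT3 were lower, while HBE1, HBD, HBB and the pseudogene HBBP1 were higher. The replicates are not stated to be separate cultures, so the p-values measure only the spread between these libraries. Labels alone assign a guide to each library.

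HBD had the largest of the 7 differences, and the sequence before its start is shown as context for it. It is the one gene of the 7 found in the RefSeq promoter table used here (GRCh38.p14). The 250 bases before the RefSeq start of HBD, chr11:5234484-5234733 on the minus strand, read 5′ to 3′ as follows, with capitals marking CTTATC, the reverse complement of GATAAG, a motif bound by GATA factors.
HBD: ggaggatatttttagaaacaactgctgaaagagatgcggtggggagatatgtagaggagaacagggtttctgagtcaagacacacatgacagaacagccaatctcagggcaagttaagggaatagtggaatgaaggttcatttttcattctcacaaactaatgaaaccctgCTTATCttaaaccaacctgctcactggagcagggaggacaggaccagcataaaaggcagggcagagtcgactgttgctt
The capitals begin 79 bases before the start. CCAAT, a motif bound by NF-Y and other factors, lies 153 bases before it. CACCC, the core of the sites bound by KLF factors, and TATAAA were not found on either strand. In 250-base windows before the starts of 35116 RefSeq genes, searched on both strands, GATAAG was present in 5.65%, CCAAT in 32%, CACCC in 54.7% and TATAAA in 10.7%. These matches describe letters and say nothing of binding in these cells.

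The fetal genes were the lower ones. HBG1 (ENSG00000213934; chromosome 11, 5248079 to 5249859, minus strand, GRCh38 with GENCODE 29 as for all positions below) encodes a gamma-globin chain and is the gene named in the guide's label. It stood at 1533, 1808 and 2448 CPM in replicates 1, 2 and 3 with the HBG1 guide and at 8851 and 8944 CPM in replicates 1 and 2 with the non-targeting guide. The groups did not overlap, and the non-targeting libraries lay close together. The log2 fold change was -2.20 (SE 0.29, adjusted p 4.99e-03, edgeR), or 4.61-fold lower. HBG2 (ENSG00000196565; 5253190 to 5505605), the other gamma-globin gene, stood at 2286, 2489 and 3405 CPM against 11880 and 12064 CPM. Its log2 fold change was -2.13 (SE 0.22, adjusted p 3.18e-04, edgeR), or 4.39-fold lower. BGLT3 (5244554 to 5245546), a non-coding RNA gene between the gamma and delta genes, was measured at 8.10, 10.7 and 10.4 CPM against 37.8 and 32.0 CPM, and its log2 fold change was -1.84 (SE 0.22; adjusted p 2.25e-03 in edgeR).

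HBG1 and HBG2 were lower by similar amounts, a likeness that was not tested. Their coding sequences differ at 2 of 444 bases, so reads may have been shared between the copies or dropped, by a treatment of multiply mapped reads that is not given in the sources used here. HBG1 took 41.3% ± 1.05 (SD, n = 3) of the summed HBG1 and HBG2 counts with the HBG1 guide and 42.6% ± 0.0875 (SD, n = 2) with the non-targeting guide. Their summed level, which does not depend on the split between copies, was 4656 ± 1063 CPM (SD, n = 3) against 20869 ± 196 CPM (SD, n = 2). The difference was -2.19 in log2(CPM + 1), with an exact two-sided permutation p of 0.2, the smallest that 3 libraries against 2 allow. The guide's own position was not analysed here, and whether it also matches the HBG2 promoter was not tested.

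The embryonic and adult genes of the locus were the higher ones. HBE1 (5268345 to 5505652), the epsilon-globin gene, stood at 14592, 7871 and 7372 CPM with the HBG1 guide and at 2979 and 2400 CPM with the non-targeting guide. Replicate 1 was nearly double the other HBG1-guide libraries, and all 3 lay above both non-targeting libraries. The log2 fold change was 1.89 (SE 0.27, adjusted p 0.0122, edgeR), or 3.70-fold higher. HBD (5232678 to 5243657), the delta-globin gene, stood at 320, 212 and 265 CPM against 9.16 and 11.05 CPM. Its log2 fold change of 4.72 (SE 0.21, adjusted p 3.32e-09, edgeR), or 26.4-fold, was the largest of the 7. HBBP1 (5241105 to 5243537), a pseudogene whose span lies inside that annotated for HBD, stood at 331, 226 and 198 CPM against 33.5 and 32.3 CPM. Its log2 fold change was 2.93 (SE 0.19, adjusted p 5.23e-07, edgeR).

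HBB (5225464 to 5229395), the adult beta-globin gene, was the least abundant, at 13.6, 5.80 and 6.69 CPM with the HBG1 guide and 1.14 and 0.728 CPM with the non-targeting guide. Its log2 fold change was 3.18 (SE 0.46, adjusted p 0.0136, edgeR). HBB and HBD coding sequences are 92.8% identical, so some reads could be assigned to either, and HBD was the more abundant in every library. The spans of HBE1 and HBG2 overlap in the annotation as well. Both genes are on the minus strand, so a strand setting could not separate them, and they differed in opposite directions.

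**Figure D1:**
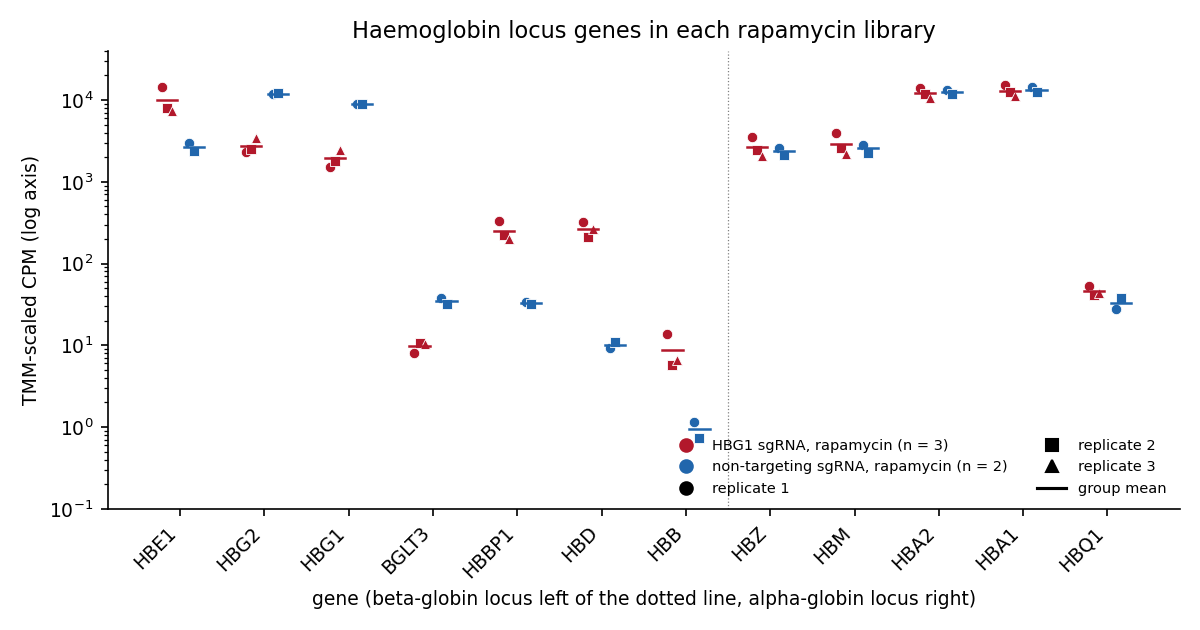
TMM-scaled CPM (log axis) of 7 beta-globin locus genes and 5 alpha-globin locus genes in each rapamycin library, with the HBG1 guide in red (n = 3) and the non-targeting guide in blue (n = 2); shapes give the replicate and bars the group mean. The 2 colours separate for every gene left of the dotted line, while right of it they overlap except for HBQ1.

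The strength of these calls differed between genes. HBD, HBBP1 and HBG2 were called under all 16 alternative analyses. HBG1 lost its call without HBG1-guide replicate 2 (adjusted p 0.0597) and without non-targeting replicate 1 (0.151) or 2 (0.0911). HBE1 lost it without non-targeting replicate 1 (adjusted p 0.376) or 2 (0.451), as did HBB (0.484 and 0.451), while BGLT3 lost it without non-targeting replicate 1 (0.185). HBE1 also missed the threshold when tested over genes with a mean of at least 10 CPM (adjusted p 0.0943), and HBB when tested with limma voom (0.810). The direction held for each of the 7 genes under every alternative that gave a value. That was all 16 for 6 genes and 15 for HBB, which is too low for the test of genes with a mean of at least 10 CPM. Leaving out a non-targeting library leaves 1 in that arm, whose spread is then assumed to be that of the other groups.

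The make-up of the beta-like transcripts differed more than their total. On a scale of CPM per kilobase of transcript, which allows levels of different genes to be compared, gamma-globin made up 31.1% ± 11.2 (SD, n = 3) of the beta-like sum with the HBG1 guide and 87.6% ± 1.75 (SD, n = 2) with the non-targeting guide. HBE1 made up 67.4% ± 11.3 against 12.4% ± 1.75, and HBD 1.46% ± 0.130 against 0.0365% ± 0.00521 (SD, n = 3 and n = 2). Epsilon-globin held the largest share with the HBG1 guide and gamma-globin with the non-targeting guide. HBB stayed a trace in both, at 0.0569% ± 0.0136 and 0.00422% ± 0.00129 (SD, n = 3 and n = 2). Within the HBG1-guide group the gamma share ran from 19.1% in replicate 1 to 41.4% in replicate 3, a wide spread beside the non-targeting range of 86.4% to 88.8%.

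**Figure D2:**
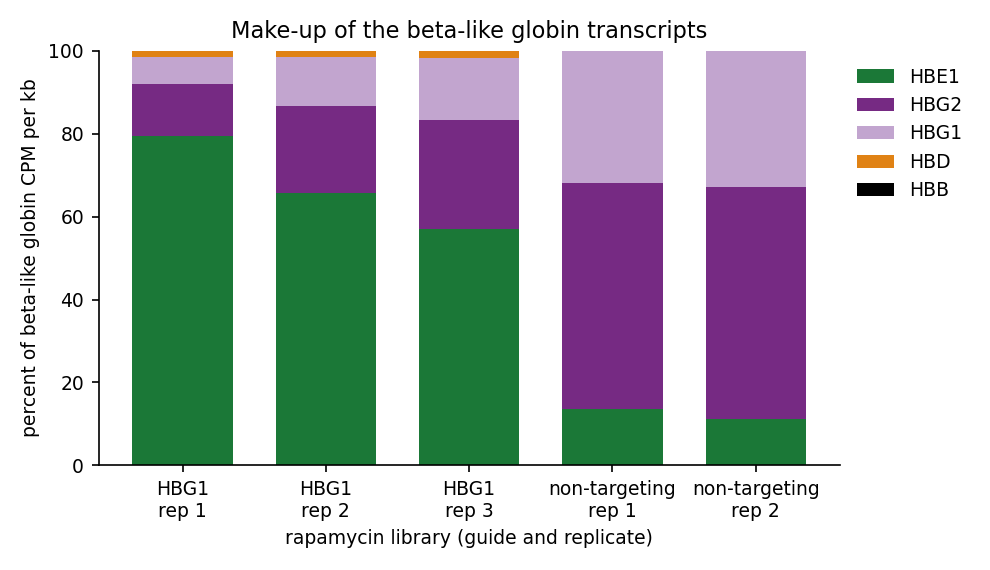
Share of each beta-like globin gene in the summed beta-like CPM per kilobase (stacked to 100%), one bar per rapamycin library; HBB is too small to see. HBE1 takes between 57.0% and 79.5% of the bar in the 3 HBG1-guide libraries and between 11.1% and 13.6% in the 2 non-targeting libraries.

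The beta-like total was lower with the HBG1 guide. The summed CPM of the 5 beta-like genes was 14875 ± 3396 (SD, n = 3) against 23570 ± 212 (SD, n = 2), a difference of -0.69 in log2(CPM + 1) with an exact two-sided permutation p of 0.2, again the smallest possible. The higher HBE1 and HBD levels were thus smaller in sum than the gap in gamma-globin. The summed alpha-like level was 27876 ± 4657 CPM (SD, n = 3) against 28327 ± 2695 CPM (SD, n = 2), a gap well inside the spread. The ratio of beta-like to alpha-like transcripts per kilobase was 0.494 ± 0.0603 (SD, n = 3) with the HBG1 guide and 0.736 ± 0.0617 (SD, n = 2) with the non-targeting guide.

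The alpha-globin locus on chromosome 16, which encodes the partner chains, showed no called gene among 7 tested (edgeR, adjusted p from 0.773 to 0.957). HBA1 stood at a log2 fold change of -0.05 (SE 0.11) and HBA2 at -0.04 (SE 0.11), and 95% intervals of -0.29 to 0.20 and -0.28 to 0.20 bound any difference in these 2 adult alpha genes. HBA1 and HBA2 are near-identical copies, and their counts carry the same uncertainty as those of HBG1 and HBG2. The embryonic zeta gene HBZ was at 0.19 (SE 0.19), HBM, the mu-globin gene that overlaps it, at 0.19 (SE 0.19), the pseudogene HBZP1 at 0.17 (SE 0.20) and NPRL3, the neighbour whose introns hold the alpha-globin enhancers, at 0.06 (SE 0.09). HBQ1, the theta-globin gene, alone of the 7 did not overlap between groups, where 22.6% of all tested genes did not. It was measured at 53.7, 41.4 and 43.4 CPM against 27.9 and 37.4 CPM, and its log2 fold change was 0.50 (SE 0.16, adjusted p 0.773, edgeR). With no filter on low counts HBQ1 was called (adjusted p 0.0221).

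Genes beside the globin cluster were not called. GENCODE 29 places 141 genes within 1 Mb of the HBG1 start, of which 37 were tested and 30 are not globin genes, most of them olfactory receptor and TRIM genes. None of the 30 was called by edgeR, DESeq2 or limma voom, 2 were at an unadjusted p under 0.05 (6.67%, against 6.27% of all tested genes), and the median log2 fold change was 0.01. The 2 were TRIM6, at 5.78, 4.04 and 5.36 CPM against 2.05 and 4.0 CPM (log2 fold change 0.75, SE 0.33), and the read-through gene TRIM6-TRIM34 (0.82, SE 0.37), which overlaps it and can share its reads. Groups did not overlap for 11 of the 30 (36.7%), beside 22.6% of all tested genes. Within 100 kb they did not for 3 of 6. Most of the 30, and most of these 6, had a mean log2 CPM under 1. Of all tested genes that low outside the haemoglobin genes, 3.00% had an interval within 2-fold, so a neighbour's change could go unseen. OR51B4 and OR51B5, the most abundant of the 6, had log2 fold change intervals of -0.31 to 0.15 and -0.17 to 0.20. Both are on the minus strand, lie within the annotated span of HBE1 and overlap that of HBG2. Their reads may thus not be fully separate from those of these called genes. Non-globin genes within 100 kb numbered 6 and 0 of them reached an unadjusted p under 0.05. On the rest of chromosome 11, 91 of 1279 tested genes did (7.11%). Across the other nuclear chromosomes the share ran from 5.04% on chromosome 10 to 8.57% on chromosome 21.

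Beyond the haemoglobin genes, 0 of 23662 tested genes were called by edgeR's quasi-likelihood test. At an unadjusted p under 0.05 there were 1476, 773 higher and 703 lower. Over all tested genes the count at that level was 1484 (6.27%; 3.29% higher and 2.98% lower), where 1184 would be expected if no gene differed. Outside the beta-globin locus limma voom called 0 genes and DESeq2 called 6: EDF1, TCEAL3, WDR38, TUBB1, MT-TG and MT-ND5.

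How small a difference the data could show depended on expression. Of 23656 genes outside the haemoglobin genes with a standard error, 14675 (62.0%) had a 95% interval of the log2 fold change lying within a 2-fold change either way. All 3540 genes whose mean log2 CPM reached 6 did, and 98.1% lay within 1.5-fold. Between 3 and 6 the share within 2-fold was 99.4% of 7995 genes, between 1 and 3 it was 77.4% of 3800, and under 1 it was 3.00% of 8321. A fitted change of 2-fold or more was seen for 1922 of these genes, of which 1897 had a mean log2 CPM under 1, 22 between 1 and 3, 3 between 3 and 6 and 0 above. Off-target changes of less than 2-fold, or in genes of low expression, were therefore not detectable for many genes at this depth.

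**Figure D3:**
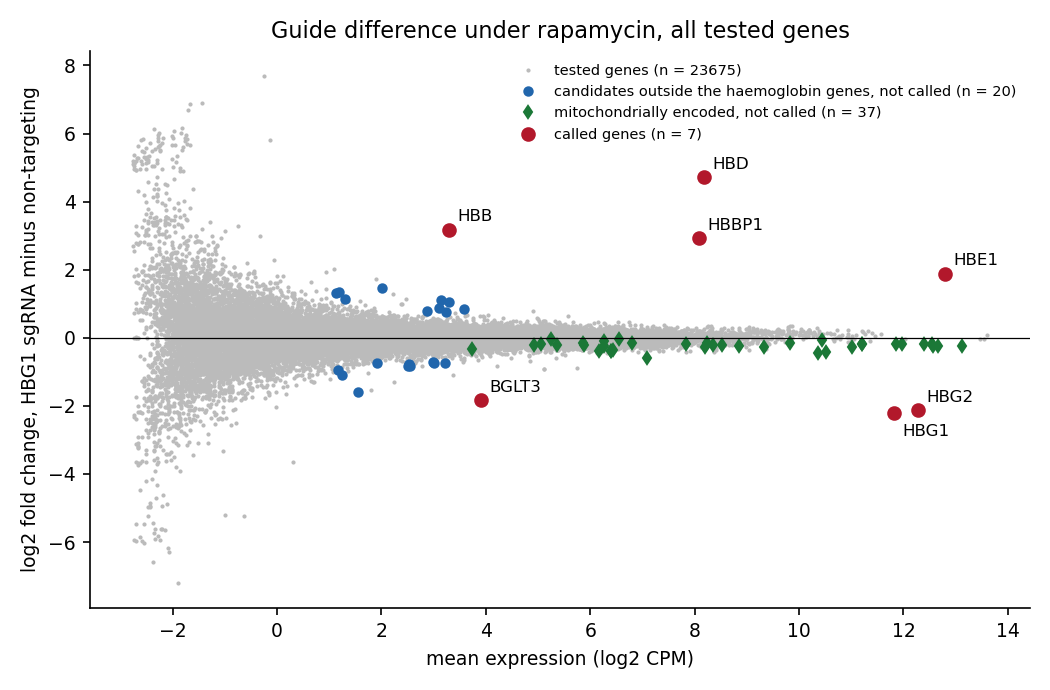
Log2 fold change of the HBG1 guide over the non-targeting guide under rapamycin against mean expression (log2 CPM) for each of the 23675 tested genes, with called genes in red, the 20 candidates in blue and 37 mitochondrially encoded genes in green. The 7 red points all belong to the beta-globin locus and lie apart from the cloud, which widens toward low expression.

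Candidate off-target genes were named by a rule that asked for an unadjusted p under 0.01, no overlap between groups, a symbol and a mean expression of 1 log2 CPM or more. The rule was met by 229 genes outside the haemoglobin genes, 124 higher and 105 lower, and the 10 most extreme in each direction are described. Outside the haemoglobin genes, 3800 genes had a mean log2 CPM between 1 and 3, 7995 between 3 and 6, and 3540 of 6 or more. Some genes meet such a rule when no gene differs, and whether 229 exceeds that number was not tested. None of these 20 was called (edgeR, adjusted p from 0.566 to 0.773), though some were under alternatives: ADCY6, CT45A5, CT45A6, CT45A7, MS4A4A and AL831711.1 with no filter on low counts, ADCY6 with a replicate block and AL831711.1 in an additive model that averages the guide difference over both treatments. All were of low abundance, and the highest rapamycin value among them was the 15.4 CPM of CT45A5 in HBG1-guide replicate 1. The values chose these genes, so their rapamycin differences are a description, and the DMSO differences are set beside them. The choice did not use the DMSO differences, but the DMSO libraries entered the fit's spread and the mean expression that the rule used. The DMSO differences rest on 1 non-targeting library and have no p.

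ADCY6, which encodes an adenylyl cyclase, headed the higher candidates at 8.31, 4.75 and 5.00 CPM against 2.49 and 1.82 CPM, a log2 fold change of 1.47 (SE 0.43). Under DMSO it stood at 6.38, 2.41 and 1.97 CPM against 2.40 CPM, so only replicate 1 was apart there. The non-coding LINC01138 was at 4.54, 1.90 and 2.50 CPM against 1.14 and 1.18 CPM (1.35, SE 0.39), and its DMSO values of 3.01, 2.13 and 2.36 CPM also lay above the 1.16 CPM of the non-targeting library. MS4A4A, a membrane protein gene known from macrophages, was at 10.99, 8.41 and 9.13 CPM against 4.42 and 5.91 CPM (0.88, SE 0.25), with a DMSO difference of 0.73. These latter 2 were the higher candidates whose DMSO difference reached 50% or more of the rapamycin difference.

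CT45A3, CT45A7, CT45A6 and CT45A5, cancer/testis antigen genes on the X chromosome, were at 1.14, 1.10, 1.04 and 0.84. The copies of this family are near-identical, so reads may be shared among them and the 4 are not independent. All 9 tested CT45A genes, a family looked at because the rule had picked 4 of its members, were higher, by 0.41 to 1.14. Of these 8 did not overlap between groups, beside 22.6% of all tested genes, and the 4 chosen members had to. Their DMSO differences for the 4 named genes were 0.29, 0.26, 0.22 and 0.23. The remaining higher candidates were the antisense gene AL031847.1 (1.30), MYPOP (0.79), which encodes a Myb-related DNA-binding protein, and GRIN3B (0.77), an NMDA receptor subunit gene. MYPOP had the opposite sign under DMSO, at -0.42.

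AL831711.1, a non-coding RNA gene on chromosome 1, headed the lower candidates at 1.96, 1.57 and 1.23 CPM against 7.22 and 2.23 CPM (-1.59, SE 0.47). Under DMSO it stood at 0.551, 0.698 and 1.87 CPM against 8.55 CPM, a difference of -3.10. Non-targeting replicate 1 carried much of the rapamycin difference, which was -0.50 without that library. FOSB, an immediate-early transcription factor gene, was at 4.03, 5.08 and 4.38 CPM against 8.45 and 7.59 CPM (-0.83, SE 0.25), and its DMSO difference was -0.24. CNIH3, which encodes an AMPA receptor auxiliary subunit, was at -0.74 and at 0.04 under DMSO. SNORD25, a small nucleolar RNA gene, was at -0.70 and at -0.43 under DMSO, the second of the lower candidates to reach 50% of its rapamycin difference there.

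The other lower candidates were the pseudogene GTF2IP9 (-1.09) and 5 non-coding genes: AP001020.1 (-0.95), AC130343.2 (-0.82), AC097359.2 (-0.76), AP001020.2 (-0.75) and AL049840.2 (-0.74). AP001020.1 and AP001020.2 overlap on chromosome 18, and AP001020.1, AC130343.2, AC097359.2 and AL049840.2 are annotated as antisense to other genes, so without a stated strand setting their reads cannot be told from those of their partners. Without non-targeting replicate 1 AC130343.2 was at -0.49.

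The DMSO values of the candidates were smaller in size than the rapamycin values that chose them, a fall that the choice of extreme values brings in part. Of the 10 higher candidates 9 had the same sign under DMSO, and of the 10 lower candidates 8 did. The median log2 difference went from 1.07 under rapamycin to 0.27 under DMSO for the higher ones and from -0.79 to -0.12 for the lower ones. Of all 229 genes that met the rule, 167 (72.9%) had the same sign, beside 55.1% of all tested genes. These shares are not matched, since the 55.1% also covers genes under a mean log2 CPM of 1, which the rule left out. The guide difference also went with transcript length under rapamycin (Spearman -0.441) and less so under DMSO (-0.131). How far either raised the shared signs was not tested. All 7 beta-globin locus genes had the same sign, and in each the DMSO difference was the larger: 5.59 for HBD, 3.92 for HBBP1, 4.63 for HBB, 2.12 for HBE1, -4.80 for HBG1, -4.71 for HBG2 and -4.26 for BGLT3. The fit across both treatments gave a difference between the 2 treatments' guide effects past the threshold in 1 gene of 23675 (0.00422%), HBG2, at 2.57 (SE 0.35, adjusted p 0.0350, edgeR). The value was as large for HBG1, whose reads may be shared with HBG2, at 2.60 (SE 0.46, adjusted p 0.276), and for BGLT3, at 2.42 (SE 0.38, adjusted p 0.125), neither past the threshold. The fit had no replicate term, and HBG1-guide replicates of the same number were alike across treatments in some genes. HBG1 rose from replicate 1 to 3 under rapamycin (1533, 1808 and 2448 CPM) and DMSO (137, 313 and 436 CPM). RN7SL2, named after its values were seen, was highest in replicate 3 under both (61.5 and 89.6 CPM). The DMSO values may thus not be independent of the rapamycin values, here or in the sign counts above.

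Several genes outside the rule's 20 came closest to a call and are named after their values were seen. EDF1, a transcriptional coactivator gene on chromosome 9, had the smallest p outside the locus, at 119, 110 and 113 CPM against 82.8 and 81.8 CPM (log2 fold change 0.47, SE 0.08, adjusted p 0.0691, edgeR). In DMSO it stood at 116, 109 and 112 CPM with the HBG1 guide and at 116 CPM with the non-targeting guide, so there the guides did not separate. EDF1 was called under some alternatives, among them DESeq2, scaling by library size alone, and leaving out genes with a mean under 10 CPM. TCEAL3, an X-linked gene, was at 0.258, 0.285 and 0.292 CPM against 6.28 and 0.773 CPM, and its overlapping neighbour TCEAL1 at 2.99, 1.95 and 2.73 CPM against 13.2 and 1.41 CPM. Both genes were high in non-targeting replicate 1 alone. DESeq2 called TCEAL3 (adjusted p 2.37e-03), as did edgeR with no filter on low counts (3.44e-08).

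The erythroid programme outside the globin genes showed no called gene. Over 5 lists (transcription factors, regulators of gamma-globin, haem synthesis, iron and haem transport, red cell membrane and cytoskeleton) 95 different genes were tested, 34 higher and 61 lower, and their median was -0.05 on the log2 scale beside 0.01 over all tested genes. None was called by edgeR, DESeq2 or limma voom, and 9 (9.47%) were at an unadjusted p under 0.05, beside 6.27% of all tested genes. Of the 91 whose mean expression was 3 log2 CPM or more, the 95% interval lay within 1.5-fold for 89 and within 2-fold for 91. Across the 16 alternatives the medians of the transcription factor, haem synthesis and membrane lists took either sign. In bulk samples fewer cells of a type and less RNA per cell cannot be told apart.

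Erythroid transcription factors stood near 0: 8 of 15 were higher and 7 lower, with a median of 0.02. KLF1, the activator of the adult beta-globin gene, was at 190, 149 and 158 CPM against 148 and 140 CPM (0.20, SE 0.11, adjusted p 0.789, edgeR). BACH1, a haem-sensing repressor, was at 71.7, 73.9 and 78.5 CPM against 90.5 and 83.9 CPM (-0.22, SE 0.09, adjusted p 0.773). NFE2, a subunit of the factor that binds the globin locus control region, was at 0.03 (SE 0.10) and STAT5A, which acts after the erythropoietin receptor, at 0.05 (SE 0.09).

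Regulators of gamma-globin were lower in 18 of 22 tested, by little: the median was -0.09, the range -0.25 to 0.25, and 17 of 22 had the same sign under DMSO. With length and GC trends removed from each library the median was -0.02, and without non-targeting replicate 1 it was -0.04. EHMT2, a histone H3 methyltransferase, had the smallest p at 83.8, 80.8 and 70.5 CPM against 65.4 and 66.3 CPM (0.25, SE 0.09, adjusted p 0.773, edgeR). CHD4, the remodeller of the NuRD complex, was at 378, 502 and 473 CPM against 509 and 506 CPM (-0.17, SE 0.11). DNMT1, the maintenance DNA methyltransferase, was at -0.05 (SE 0.09).

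Haem synthesis was likewise centred at 0 (8 of 15 higher, median 0.00). UROD, which decarboxylates uroporphyrinogen, was at 469, 401 and 401 CPM against 336 and 357 CPM (0.29, SE 0.11), and TMEM14C, a mitochondrial porphyrin transporter, at 187, 166 and 169 CPM against 144 and 144 CPM (0.28, SE 0.09). Neither passed the test (adjusted p 0.773 each, edgeR). SLC25A37, the mitochondrial iron importer, was at -0.09 (SE 0.17). Of the iron and haem transport genes 5 of 13 were higher, with ACO1, whose product is the iron regulatory protein, at -0.31 (SE 0.12), STEAP3, an endosomal ferrireductase, at -0.17 (SE 0.10), and the ferritin chains FTH1 and FTL at 0.11 (SE 0.08) and 0.04 (SE 0.07).

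Red cell membrane and cytoskeleton genes were higher in 10 of 32 and had a median of -0.05. XK, a membrane protein of the Kell complex, was at 52.1, 58.3 and 68.0 CPM against 80.9 and 69.9 CPM (-0.34, SE 0.11), and EPB41, the cytoskeletal protein 4.1, at 374, 375 and 407 CPM against 462 and 433 CPM (-0.22, SE 0.07). For both genes the groups did not overlap, and neither passed the test (adjusted p 0.773 each, edgeR). Over the list the groups did not overlap for 6 of 32 genes (18.8%), beside 22.6% of all tested genes. The transferrin receptor TFRC was at -0.12 (SE 0.07) and the Rh-associated glycoprotein RHAG at 0.03 (SE 0.09).

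**Figure D4:**
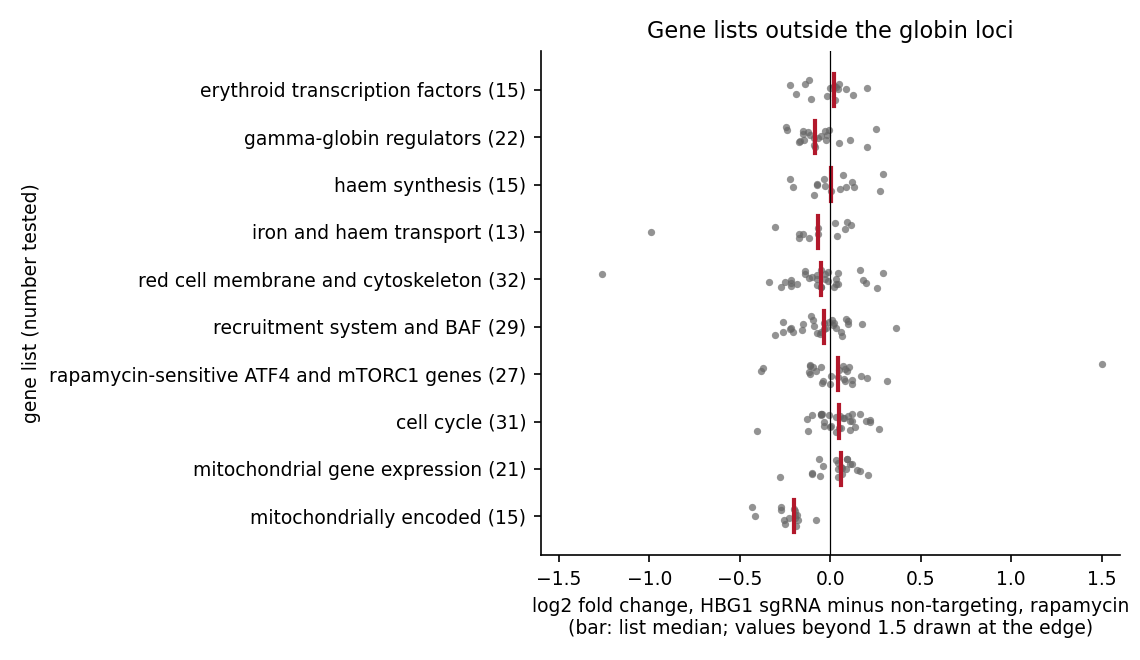
Log2 fold change of the HBG1 guide over the non-targeting guide under rapamycin for each tested member (points) of 10 gene lists, with the list median as a red bar. Medians lie between -0.09 and 0.06 except for the mitochondrially encoded genes, at -0.20.

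Genes that could mark the recruitment system, the drug or the state of growth were not called in any list by edgeR in the fit used here, nor by DESeq2 or limma voom. With no filter on low counts edgeR called SLC7A1 (adjusted p 0.0458) and MKI67 (adjusted p 4.19e-03). SS18, FKBP1A and MTOR, whose products or parts of them are in the recruitment system or are targets of rapamycin, were at 0.01 (SE 0.14), -0.15 (SE 0.10) and -0.16 (SE 0.15), with SS18 and FKBP1A counts possibly including reads of the fusions. Of 29 genes of this list and the BAF complex 11 were higher, and the median was -0.04, which turned to 0.02 with length and GC trends removed. The DNA-binding subunits ARID1B and ARID1A were at -0.26 (SE 0.11) and -0.22 (SE 0.11), the ATPase SMARCA4 at -0.07 (SE 0.08) and the core subunit SMARCC1 at -0.04 (SE 0.09). Of 27 ATF4 and mTORC1 genes 15 were higher (median 0.04, and -0.01 with length and GC trends removed), with the amino acid transporters SLC7A1 at 54.3, 69.0 and 59.4 CPM against 83.1 and 75.4 CPM (-0.38, SE 0.11) and SLC7A11 at -0.37 (SE 0.13).

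Cell cycle genes were higher in 19 of 31 (median 0.05), and 12 of 31 did not overlap between groups (38.7%, beside 22.6% of all tested genes). The proliferation marker MKI67 was at 164, 221 and 221 CPM against 303 and 233 CPM (-0.41, SE 0.14) and the mitotic kinase CDK1 at 239, 206 and 219 CPM against 200 and 185 CPM (0.20, SE 0.08), so these 2 pointed in opposite directions. Topoisomerase TOP2A was at -0.13 (SE 0.07) and the replicative helicase subunit MCM7 at -0.05 (SE 0.08). Of 17 tested interferon and double-stranded RNA response genes 6 were higher (median -0.06). EIF2AK2, the kinase PKR, was at -0.24 (SE 0.10) and IFI27 at 3.82, 1.76 and 1.95 CPM against 1.38 and 1.18 CPM (0.95, SE 0.46).

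Mitochondrially encoded transcripts were lower as a whole, each by little, and none was called in the fit used here, though up to 5 were called under alternatives to it. They took 5.98%, 5.32% and 5.23% of counts in the HBG1-guide libraries and 6.50% and 6.29% in the non-targeting libraries. The groups did not overlap, with means of 5.51% ± 0.408 (SD, n = 3) and 6.39% ± 0.146 (SD, n = 2), and the difference was -0.88 percentage points (exact two-sided permutation p 0.2, the smallest possible). Under DMSO the shares were 5.02%, 5.42% and 5.31% with the HBG1 guide and 5.40% with the non-targeting guide, so there the non-targeting library lay inside the range of the others. The median log2 fold change of all 37 genes was -0.21 under rapamycin and -0.10 under DMSO.

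All 37 were lower: 13 of 13 protein-coding genes, 22 of 22 tRNA genes and 2 of 2 rRNA genes. At an unadjusted p under 0.05 there were 20 (54.1%, beside 6.27% of all tested genes), and 22 did not overlap between groups (59.5%, beside 22.6%). The 37 genes are cut from a few long transcripts of 1 genome, and their levels are not independent of each other. The libraries were made after poly-T selection. Whether reads over the tRNA genes came from mature tRNAs or from uncut transcripts was not tested. Across the 16 alternatives between 35 and 37 genes were lower, between 10 and 31 of them at an unadjusted p under 0.05, and the median ran from -0.28 to -0.16. With edgeR 5 of the 37 were called in the additive model, 5 with no filter on low counts and 3 with a replicate block. DESeq2 called 2 and limma voom 0. In the additive model these 5 made up all but 1 of the 6 calls outside the beta-globin locus, and they were MT-TG, MT-ND5, MT-TL2, MT-TS2 and MT-TR.

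MT-ND5, a complex I subunit gene, stood at 1353, 1195 and 1328 CPM against 1769 and 1680 CPM (-0.42, SE 0.09, adjusted p 0.458, edgeR). MT-ND4L, another complex I subunit gene, was at 1318, 1181 and 1152 CPM against 1795 and 1494 CPM (-0.43, SE 0.12). MT-CO1 and MT-CO3, subunits of cytochrome c oxidase, were at -0.25 (SE 0.07) and -0.23 (SE 0.08). The ribosomal RNA genes MT-RNR1 and MT-RNR2 were at -0.08 (SE 0.09) and -0.20 (SE 0.09), with overlapping groups. MT-TG, the glycine tRNA gene, had the smallest p of the 37 and is named after its value was seen: it was at 114, 91.4 and 122 CPM against 161 and 168 CPM (-0.59, SE 0.11, adjusted p 0.198, edgeR).

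**Figure D5:**
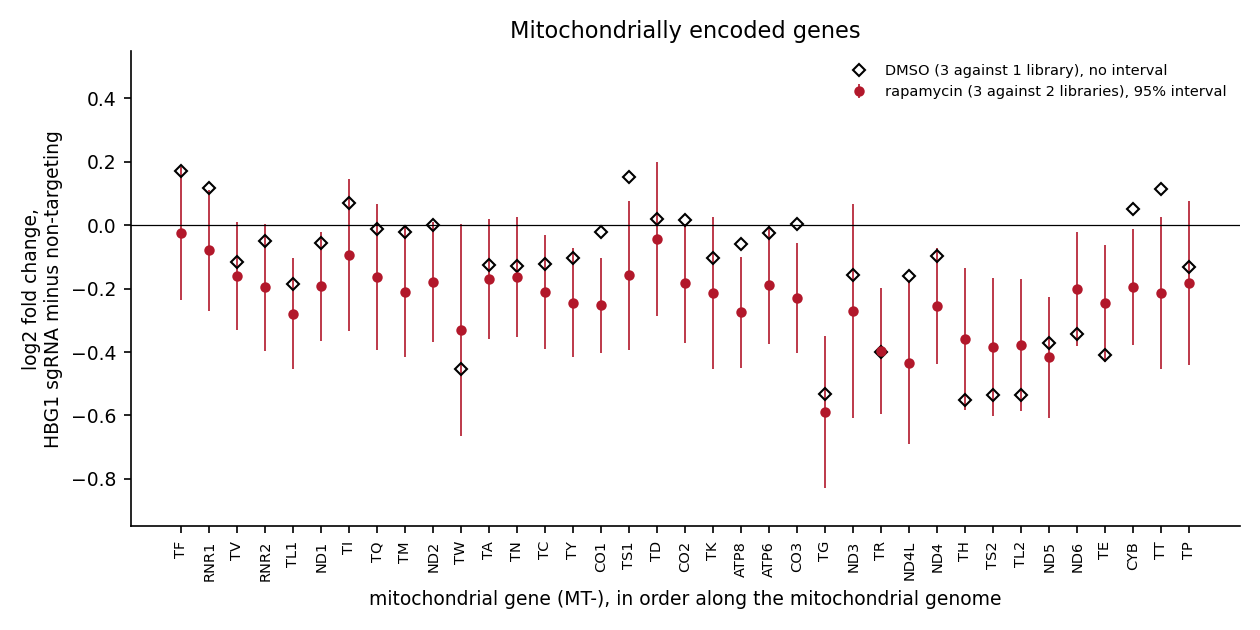
Log2 fold change of the HBG1 guide over the non-targeting guide for the 37 mitochondrially encoded genes in their order along the mitochondrial genome, under rapamycin with 95% intervals (red) and under DMSO, where 1 non-targeting library gives no interval (open diamonds). Each red point is below 0, while the DMSO points lie on both sides of 0, with the lowest at TH.

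Nuclear genes for mitochondrial transcription and RNA processing did not share this direction: 15 of 21 tested were higher, with a median of 0.06, none was called and 0 were at an unadjusted p under 0.05. SSBP1, the mitochondrial single-strand binding protein, was at 179, 158 and 171 CPM against 152 and 154 CPM (0.15, SE 0.08). LRPPRC, which stabilises mitochondrial mRNAs, was at 270, 264 and 276 CPM against 296 and 282 CPM (-0.10, SE 0.07), and PPARGC1B, a coactivator of mitochondrial biogenesis, was at -0.28 (SE 0.17).

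Markers of the line and of other blood cells were read to check the label. All 14 K562 erythroleukaemia markers were tested and none was under 1 CPM on average; their summed level was 32913 to 49486 CPM with the HBG1 guide and 30596 to 35158 CPM with the non-targeting guide, and HBE1 alone was called. Megakaryocyte markers summed to 671 to 702 CPM against 667 to 697 CPM, with 8 of 15 tested, 7 under 1 CPM and 2 at 0 in all rapamycin libraries. GP1BB alone made up most of that sum, at 543, 539 and 555 CPM against 502 and 541 CPM. TUBB1, the megakaryocyte beta-tubulin gene, was at 46.6, 38.6 and 40.5 CPM against 71.7 and 53.3 CPM (-0.58, SE 0.12, adjusted p 0.446, edgeR). DESeq2 called TUBB1 (adjusted p 0.0470), as did edgeR with no filter on low counts (3.00e-04). Myeloid markers summed to 79.9 to 88.0 CPM against 56.5 to 83.1 CPM (13 of 16 tested, 9 under 1 CPM) and lymphoid markers to 38.5 to 45.8 CPM against 26.6 to 40.8 CPM (4 of 15 tested, 6 at 0). Within these, LYZ was at 0.41 (SE 0.18) and PTPRC at 0.39 (SE 0.17), both low in non-targeting replicate 1. PTPRC alone made up most of the lymphoid sum, at 38.1, 30.2 and 34.4 CPM against 20.2 and 32.2 CPM. That sum thus mainly describes this gene.

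The rapamycin libraries held between 19797409 and 30107349 counts. The haemoglobin genes took 4.14% to 5.77% of counts and the 10 most abundant genes 7.89% to 9.91%. Over 11452 nuclear genes whose mean expression was 3 log2 CPM or more, the log2 fold change went with transcript length (Spearman -0.441 across genes, which are not independent replicates and share the same 5 libraries). Genes at an unadjusted p under 0.05 had a median transcript length of 1650 nt where higher and 6368 nt where lower, beside 3337 nt over all 11452. The trend was strongest in HBG1-guide replicate 1 and non-targeting replicate 1, where deviations from the mean correlated with length at -0.389 and 0.424. With length and GC trends removed from each library, an alternative chosen after seeing the data, the same test called 7 genes, 0 of them outside the beta-globin locus.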

How the data were processed

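RNA-seq of K562-FIRE cells gave 9 libraries, made, per the labels' protocols, with a NEBNext Ultra kit after poly-T selection. The values the authors deposited are read counts, 1 whole number per library and Ensembl gene. The submitters' processing notes name STAR 2.7.3a, featureCounts, Subread 2.0.0 and GRCh38; strand setting, annotation release and the treatment of multiply mapped reads are not given in the sources used here. Unstated multiple mapping affects HBG1, HBG2, HBA1, HBA2 and CT45A genes.

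Of 58347 gene IDs, 58039 were found in GENCODE 29, which supplied symbols and positions. The analysis used edgeR 4.0.16 and R 4.3.3: filterByExpr at a minimum count of 10, TMM scaling, and 1 quasi-likelihood fit of all 9 libraries with 1 mean per group. CPM values in the text are TMM-scaled and were computed here. Fold changes are HBG1 guide over non-targeting guide. Standard errors are the log2 fold change over the square root of F, and 95% intervals use the fit's degrees of freedom. Values per kilobase divide by the shortest consensus coding transcript. Permutation tests (scipy 1.17.1) enumerated all 10 splits of 3 against 2 libraries. DESeq2 1.42.0 and limma 3.58.1 voom were among 16 alternatives. The script was tested on simulated data. Counts of replicates differed by more than sampling noise in each pair.

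Named genes are the globin genes, the called genes, the candidates as defined in the text, and from each other list the 2 members of smallest p and the 2 of highest expression. The members, the lists and the tests were chosen with earlier results of these data known. No batch is given in the labels.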

Additional observations from a re-analysis of the deposited data

Results flagged for a closer look

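HBG2 differed between guides by different amounts in the 2 treatments: its log2 fold change was -2.13 under rapamycin and -4.71 under DMSO, and the difference between them, 2.57 (SE 0.35, adjusted p 0.0350, edgeR quasi-likelihood test), passed the threshold. HBG1 (2.60, SE 0.46, adjusted p 0.276) and BGLT3 (2.42, SE 0.38, adjusted p 0.125) differed by as much and missed the threshold, so the difference is not shown to be particular to HBG2. The DMSO value rests on 1 non-targeting library, which borrows the spread of the other groups. The fit had no replicate term, though HBG1 and HBG2 rose from replicate 1 to 3 with the HBG1 guide in both treatments. The groups hold at most 3 libraries, so no single library was tested as an outlier.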

How the results depend on the processing

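The 7 calls became 13 with DESeq2, 91 with no filter on low counts, 21 with the replicate block and 13 in an additive model that averages the guide difference over both treatments, and ran from 3 to 7 with 1 library left out. The count outside the locus, 0, became 1 with library size scaling only, 6 with DESeq2, 84 with no filter (all 84 genes also pass the filter), 1 with a mean of at least 10 CPM, 14 with the replicate block and 6 in the additive model, and ran from 0 to 2 with 1 library left out. Those 2 were TCEAL3 and TCEAL1, without non-targeting replicate 2. The called locus genes numbered 3 without non-targeting replicate 1, 4 without replicate 2, and up to 7 otherwise; the cause was not tested. In the additive model HBG1 stood at -3.40 and HBG2 at -3.31, since that model includes the larger DMSO differences. For single genes, lists and mitochondrial counts 718 values kept their direction and side of the threshold (or moved within the spread), 28 moved, 8 passed it and 10 lost it; no called result reversed.

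The labels do not say whether replicate numbers pair libraries across guides. Deviations of replicates 1 and 2 correlated at -0.05 and -0.06 across guides over 11548 genes. With 2 non-targeting libraries, their deviations are mirror images of each other, so these values are not separate checks and cannot settle the pairing. The 14 genes outside the locus under the block were led by RN7SL2 (-1.62), RN7SL1 (-1.63) and related genes; RN7SL2 stood at 23.8, 23.2 and 61.5 CPM against 64.8 and 71.4 CPM. EDF1, WDR38, TUBB1, ADCY6, G0S2, MT-TG, MT-ND5 and MT-TS2 were also among them. Depth limited the genes under a mean log2 CPM of 1, of which 3.00% had an interval within 2-fold.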

Other observations

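Some mitochondrial genes were lower with the HBG1 guide in both treatments. The 8 genes MT-TG, MT-TR, MT-TH, MT-TS2, MT-TL2, MT-ND5, MT-ND6 and MT-TE, picked after their values were seen, were lower with the HBG1 guide by -0.59 to -0.20 under rapamycin and by -0.55 to -0.34 under DMSO. The other 29 genes ran from -0.43 to -0.03 under rapamycin and from -0.45 to 0.17 under DMSO, with medians of -0.20 and -0.05. MT-ND3, MT-ND4L and MT-ND4, which lie among the 8 along the genome, were at -0.16, -0.16 and -0.10 under DMSO, and MT-TW, which lies apart from them, was at -0.45. No test was made of these groups, since the values chose them.

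WDR38, named after its value was seen, was at 50.1, 56.9 and 50.8 CPM with the HBG1 guide and at 31.5 and 35.6 CPM with the non-targeting guide under rapamycin (log2 fold change 0.65, SE 0.14, adjusted p 0.420, edgeR). Under DMSO it was at 65.2, 51.9 and 44.4 CPM against 42.8 CPM. DESeq2 called WDR38 under rapamycin (adjusted p 0.0181), as did edgeR with no filter on low counts (2.28e-05).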
